A study of Mus musculus with 42 samples.

Results

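The group B Sox genes of the mouse, Sox1, Sox2, Sox3, Sox14 and Sox21, were examined as targets in 30 ChIP-seq peak lists, of which 12 came from SOX2, 9 from β-catenin and 9 from LEF1 immunoprecipitations. They are 5 of the 21911 protein-coding genes placed in the analysis. A gene was taken with every peak that overlapped its body or the 30 kb on either side, and this stretch is called its locus. All cells were HM1 TetON mouse embryonic stem cells or mutants of that line. They were differentiated and collected at 72 h, in medium that held FGF throughout together with LGK974, which blocks the release of WNT ligands. CHIR99021 (CHIR), a GSK3 inhibitor that switches on WNT signalling, was added from day 2 to day 3 in 9 of the 10 groups. The authors name cells given CHIR caudal epiblast-like and cells kept without it epiblast-like. The comparison with and without CHIR is thus also between these cell states. Wild-type (WT) cells with CHIR, Cdx1/2/4-/- cells with CHIR (CdxKO) and T/Bra-/- cells with CHIR (T/BraKO) were each immunoprecipitated for all 3 proteins, and WT cells without CHIR for SOX2 only. Each group held 3 libraries that the labels give as biological replicates. Each genotype is a separate cell line, so line and genotype cannot be told apart, and peak lists carry no expression with which the deletions or the identity of the cells could be checked. The 12 input libraries were not analysed here.

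SOX proteins bind DNA through an HMG box. Sox1, Sox2 and Sox3 form the B1 group, which keeps progenitors undifferentiated, while Sox14 and Sox21 form the B2 group, which acts mainly in repression and in neuronal differentiation. Sox2 is also a core pluripotency gene, is held on in neural progenitors through many separate enhancers around it, and its product binds some of these itself. β-catenin is the WNT co-activator and reaches DNA through TCF and LEF proteins, of which LEF1 is a member. T/Bra is a T-box factor of the primitive streak, and Cdx1, Cdx2 and Cdx4 are homeobox factors of the posterior body axis.

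The deposited lists held 26940 to 1008922 peaks. To compare equal numbers of peaks, a peak was counted, unless stated otherwise, where it stood among the 20000 best of its library by q-value. The weakest peak kept differed too: its -log10 q was 14.1 in WT with CHIR replicate 1 for SOX2, the longest list, against 7.28 and 8.20 in the other WT libraries with CHIR and 9.04, 9.16 and 9.63 in the 3 WT libraries without CHIR. SOX2 T/BraKO replicate 3 was the shortest list, with a cut at 3.26. Peaks of a factor were merged into regions, and a region is described where at least 2 of the 3 libraries of a group called it. This gave 18 SOX2 regions, 13 β-catenin regions and 1 LEF1 region in the 5 loci. Regions are named by the distance of their summit from the start of the gene in GENCODE M21, plus being downstream. Fold enrichment is the height of the peak over the local background as MACS2 gave it.

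The elements on which the results turn are printed here, 201 bases around the summit and plus strand of mm10. Capitals mark the letters of a searched motif: the SOX words were CCATTGT and also CCTTTGT, the TCF/LEF words CTTTGAA and also CTTTGAT, and the CDX words CAATAAA with its variants CCATAAA, then TAATAAA and then also TCATAAA, each on either strand. The SOX word CCTTTGT shares the core CTTTG with the TCF/LEF words, but no single stretch can match both. Sox2 +3.7 kb and Sox14 +3.4 kb are shown because every SOX2 library had a peak there among its 20000 best, and Sox2 +15.0 kb and +18.1 kb because every β-catenin library did. Sox2 +20.8 kb and Sox21 +6.6 kb are shown because SOX2 was called there in all WT libraries without CHIR and in no WT library with CHIR.
Sox2 +3.7 kb, SOX2 summit, chr3:34653982-34654182: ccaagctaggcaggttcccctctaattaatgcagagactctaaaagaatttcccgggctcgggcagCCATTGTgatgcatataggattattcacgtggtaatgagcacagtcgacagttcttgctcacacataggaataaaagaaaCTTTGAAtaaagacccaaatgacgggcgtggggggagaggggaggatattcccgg
Sox2 +15.0 kb, β-catenin summit, chr3:34665277-34665477: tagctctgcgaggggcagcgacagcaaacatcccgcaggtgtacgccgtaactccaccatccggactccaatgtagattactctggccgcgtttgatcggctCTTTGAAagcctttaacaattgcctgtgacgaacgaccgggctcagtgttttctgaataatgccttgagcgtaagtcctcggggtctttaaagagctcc
Sox2 +18.1 kb, β-catenin summit, chr3:34668432-34668632: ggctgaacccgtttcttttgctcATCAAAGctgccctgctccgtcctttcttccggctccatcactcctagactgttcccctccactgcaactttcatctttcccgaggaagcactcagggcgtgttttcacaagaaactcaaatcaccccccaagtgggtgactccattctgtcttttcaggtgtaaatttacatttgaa
Sox2 +20.8 kb, SOX2 summit, chr3:34671090-34671290: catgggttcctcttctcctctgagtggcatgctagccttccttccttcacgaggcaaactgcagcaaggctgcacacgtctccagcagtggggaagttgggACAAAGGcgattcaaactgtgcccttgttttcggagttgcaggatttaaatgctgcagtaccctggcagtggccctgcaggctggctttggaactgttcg
Sox14 +3.4 kb, SOX2 summit, chr9:99872637-99872837: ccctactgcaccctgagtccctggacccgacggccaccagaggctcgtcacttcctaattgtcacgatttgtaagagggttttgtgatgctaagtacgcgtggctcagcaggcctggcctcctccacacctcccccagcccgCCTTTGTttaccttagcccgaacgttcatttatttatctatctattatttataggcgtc
Sox21 +6.6 kb, SOX2 summit, chr14:118230287-118230487: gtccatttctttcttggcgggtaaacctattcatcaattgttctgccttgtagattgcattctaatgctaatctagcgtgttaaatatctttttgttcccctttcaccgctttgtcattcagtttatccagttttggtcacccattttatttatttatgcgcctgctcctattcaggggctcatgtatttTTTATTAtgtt

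Peaks were most frequent at Sox2 and rarest at Sox3. Every one of the 30 libraries had a peak in the Sox2 locus (chr3:34620405-34682461), 27 in that of Sox1, 26 in that of Sox14, 18 in that of Sox21 and 8 in that of Sox3. In the SOX2 lists the Sox2 locus held 11, 9 and 8 peaks in WT without CHIR and 5, 7 and 5 in WT with CHIR, so these groups did not overlap. It held 11, 8 and 3 in CdxKO and 6, 6 and 6 in T/BraKO. The CdxKO libraries thus spread over a wider range than all other SOX2 groups together. The β-catenin lists gave 10, 7 and 5 peaks at Sox2 in WT, 3, 5 and 6 in CdxKO and 6, 6 and 6 in T/BraKO, ranges that overlap. LEF1 lists gave 1 to 4.

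**Figure D1:**
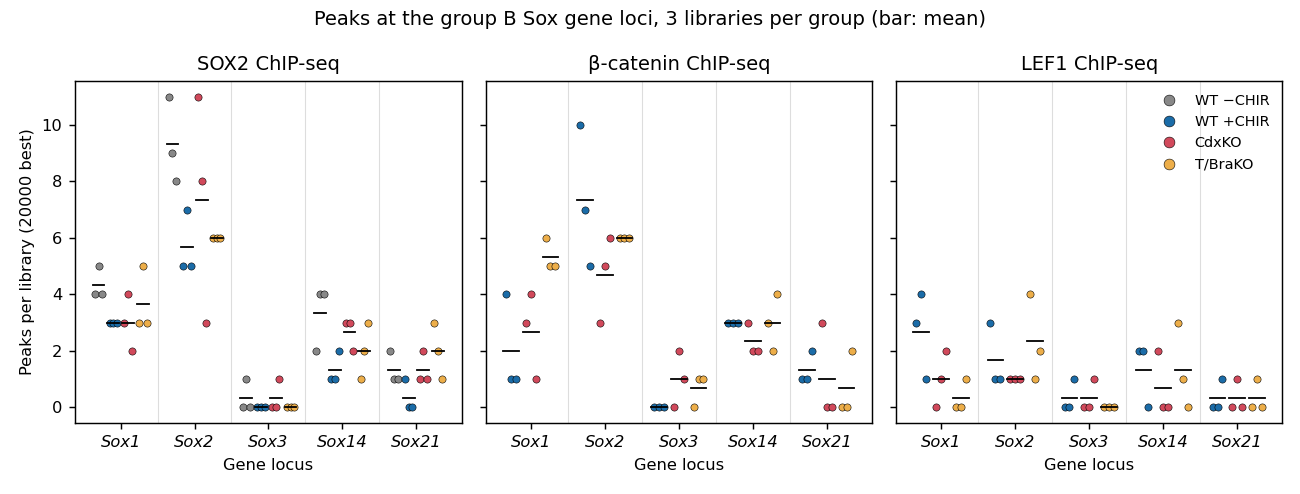
Number of peaks among the 20000 best of each library (vertical axis) in each gene locus (horizontal axis), with a panel for each immunoprecipitated protein, a point for each library and a bar for the mean of 3. At Sox2 the SOX2 libraries of WT without CHIR sit at 8 to 11 and those of WT with CHIR at 5 to 7, and Sox3 stays at 2 or fewer throughout.

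At Sox1 the SOX2 count was 4, 5 and 4 without CHIR against 3, 3 and 3 with CHIR in WT cells. Sox1 and Sox2 were therefore the 2 of 5 loci at which WT with CHIR lay wholly below WT without CHIR, as did 4.55% of the 19372 genes with a peak in these groups. When only peaks with their summit inside the locus were counted, a setting chosen after seeing the data, Sox1 overlapped and Sox2 alone remained separated. At Sox14 the count was 2, 4 and 4 against 1, 1 and 2, and at Sox21 2, 1 and 1 against 1, 0 and 0, so both overlap. In the opposite direction 0 of the 5 were separated, against 2.9% of genes. Between WT and the mutants, 0 of 5 were separated in the SOX2 lists, where WT lay above CdxKO at 1.93% of genes and below it at 3.14%, and above T/BraKO at 2.02% and below it at 2.26%. It was likewise 0 of 5 in the LEF1 lists, against 1.79% above and 1.65% below CdxKO and 1.93% above and 1.79% below T/BraKO. For β-catenin, Sox1 held 4, 1 and 1 peaks in WT and 6, 5 and 5 in T/BraKO, with WT wholly below as at 2.13% of 18674 genes. CdxKO, at 3, 4 and 1, overlapped WT there. The other β-catenin counts were 0 of 5, with WT above T/BraKO at 2.8% of genes, above CdxKO at 2.2% and below CdxKO at 1.59%.

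None of these differences passed a test adjusted over all genes. An exact permutation test of the peak number across the groups of a factor gave, for SOX2, p = 0.273 at Sox1, p = 0.277 at Sox2, p = 0.120 at Sox14 and p = 0.158 at Sox21. For β-catenin the lowest was the exact p = 0.0679 at Sox1, and for LEF1 the exact p = 0.121, also at Sox1. Sox3 had too few peaks to be tested for SOX2 and LEF1. All adjusted values were 0.864 or higher. Over all genes the exact test called 0 of 17628, 0 of 15917 and 0 of 18389 for SOX2, β-catenin and LEF1 (0% each) after adjustment, with 1023, 601 and 460 genes at an unadjusted exact p under 0.05. The lowest p this exact test could give was 6.49e-05 for SOX2 and 0.00357 for β-catenin and LEF1. At these floors no gene could pass alone after adjustment over all genes, only many genes together. The lack of calls is therefore weak evidence about any single locus. An exact test of only 3 libraries against 3 cannot go below p = 0.1.

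Set against the length of the locus, peaks were dense at Sox2 and Sox1 and sparse at Sox3. In WT with CHIR the Sox2 locus held 9.13 SOX2 peaks and 11.8 β-catenin peaks per 100 kb on average, while the median gene held 0.931 and 0.816. More SOX2 peaks per 100 kb were found there than at 99.7% of all genes, and more β-catenin peaks than at 99.9%. Sox1 (4.63 SOX2 peaks per 100 kb) and Sox14 (2.15) also stood above the median gene in that group, whereas Sox21 (0.522) and Sox3 (0) stood below it. The median over the 5 members ranged over groups from 2.15 to 5.37 for SOX2 and from 3.08 to 4.83 for β-catenin. For LEF1 it was 2.15 in WT, 1.07 in CdxKO and 0.522 in T/BraKO, where the median gene had 0.931, 0.910 and 0.909. Of 14 Sox genes outside group B, listed for comparison, 10 to 14 had a peak in at least 1 library of a group and 8 to 11 lay above the median gene, with a median of 1.01 to 2.27 per 100 kb over the 10 groups. A density like that of Sox1 was also seen among them. In WT with CHIR, Sox9 (5.59) exceeded Sox1 for SOX2, Sox13 (4.57) came close and the rest held fewer. For β-catenin, Sox11 (6.83), Sox15 (6.51), Sox12 (5.69), Sox9 (4.58) and Sox13 (3.59) exceeded Sox1 (3.08). Sox4 (3.09) equalled it and the rest held fewer. None of the listed genes reached Sox2 for either protein.

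SOX2 bound 9 regions around its own gene, all within Sox2ot, a noncoding transcript that contains Sox2. The strongest was the +3.7 kb region (chr3:34653675-34654461, an intron of Sox2ot). Its SOX2 fold enrichment was 18.1, 34.9 and 45.7 in WT without CHIR and 29.8, 13.8 and 16.1 in WT with CHIR. CdxKO gave 32.2, 26.2 and 25.2 there and T/BraKO 27.1, 32.4 and 16.3. All 12 libraries placed it among their best 1683 peaks and the 4 groups overlapped. After centring each library on its median, WT with CHIR differed from WT without CHIR by -0.25 on the log2 scale (SE 0.40, limma adjusted p = 0.761).

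The +18.2 kb region (chr3:34668021-34668998, an intron of Sox2ot) was also called in all 12 SOX2 libraries. Its fold enrichment was 24.9, 19.3 and 8.84 in WT without CHIR, 15.8, 6.91 and 31.7 in WT with CHIR, 17.9, 25.6 and 32.3 in CdxKO and 16.0, 14.7 and 22.6 in T/BraKO. The spread within WT with CHIR, 18.1 ± 12.6 (SD, n = 3), covered the means of the other groups. At both elements SOX2 was thus found whether or not WNT signalling had been switched on and with or without Cdx or T/Bra.

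**Figure D2:**
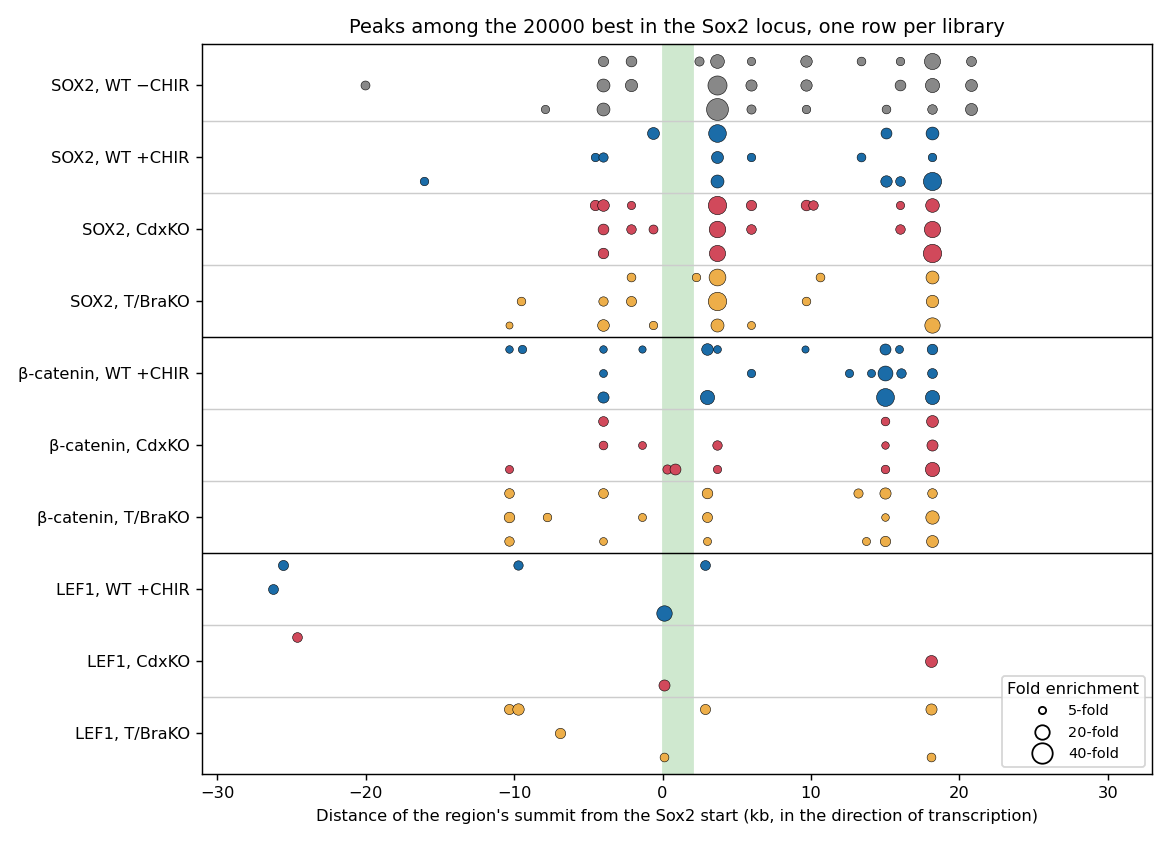
Peaks among the 20000 best in the Sox2 locus, with a row for each of the 30 libraries, the distance of the region's summit from the Sox2 start in kb on the horizontal axis, point area proportional to fold enrichment, and the gene body shaded. Columns of points at +3.7 and +18.2 kb run through all 12 SOX2 rows, a column at +20.8 kb appears in the rows of WT without CHIR only, and β-catenin columns at +15.0 and +18.1 kb run through all 9 β-catenin rows.

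In WT cells SOX2 peaks reached the 20000 best only without CHIR at regions of Sox2, Sox14 and Sox21. In 4 of the 40 member regions called in either WT group, all 3 libraries without CHIR and none with CHIR had a peak among the 20000 best. The share over all 76008 such regions was 3.89%. In the opposite direction it was 0 of 40, against 0.146%. The 4 regions were Sox2 +9.6 kb, Sox2 +20.8 kb, Sox14 +7.5 kb and Sox21 +6.6 kb. A peak missing from the 20000 best was often present in the full list, so these calls depend on the q-value cut of each library. That cut was strictest in WT with CHIR replicate 1, and its part in the result was not tested.

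At Sox2 +20.8 kb (chr3:34671070-34671639, an intron of Sox2ot) the fold enrichment was 9.46, 13.6 and 13.9 without CHIR. With CHIR, WT replicates 1 and 3 had weaker peaks of 6.4 and 5.07 that fell outside the 20000 best, and replicate 2 had none even in its full list. CdxKO (5.66 and 3.47) and T/BraKO (4.92) likewise had peaks only in full lists, in 2 libraries and in 1. No β-catenin or LEF1 region described here lay at this element. At Sox2 +9.6 kb (chr3:34659842-34660215, an intron of Sox2ot) the values were 12.7, 12.4 and 6.91 without CHIR and, in full lists only, 4.91, 3.72 and 6.32 with CHIR. CdxKO replicate 1 and T/BraKO replicate 2 still had this peak among their 20000 best, at 10.9 and 7.11.

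Sox14 +7.5 kb (chr9:99868453-99868957, intergenic) gave 6.88, 18.5 and 9.46 without CHIR and weak peaks of 3.82 and 4.25 in WT replicates 1 and 2 with CHIR. Sox21 +6.6 kb (chr14:118230066-118231066, intergenic) gave 13.1, 13.3 and 8.74 without CHIR and 3.93 and 5.07 in WT replicates 1 and 3 with CHIR. In each of the 4 regions the WT folds without CHIR all exceeded those with CHIR. This order and the log2 differences below largely follow from choosing regions called in WT only without CHIR. Folds were lower with CHIR over the genome as well: of regions with a peak in all 6 full WT lists, all 3 libraries with CHIR lay below those without CHIR at 25% of 6493 and above them at 3%, and at 4 and 0 of 12 member regions. Those 4 member regions were Sox2 -2.1 kb, Sox2 +9.6 kb, Sox1 +34.9 kb and Sox14 +3.4 kb, so Sox2 +9.6 kb alone belongs to both sets. With libraries that lacked a peak set to the lowest fold of their list, so that all 18 regions could be fitted, the log2 difference of WT with CHIR from WT without CHIR was -1.49 (SE 0.64) at Sox21 +6.6 kb, -1.40 (SE 0.76) at Sox14 +7.5 kb, -1.33 (SE 0.76) at Sox2 +20.8 kb and -0.62 (SE 0.74) at Sox2 +9.6 kb. None passed: limma's adjusted p was 0.119 at Sox21 and 0.221, 0.244 and 0.615 at the others, in a fit that called 13.5% of 21668 regions.

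**Figure D3:**
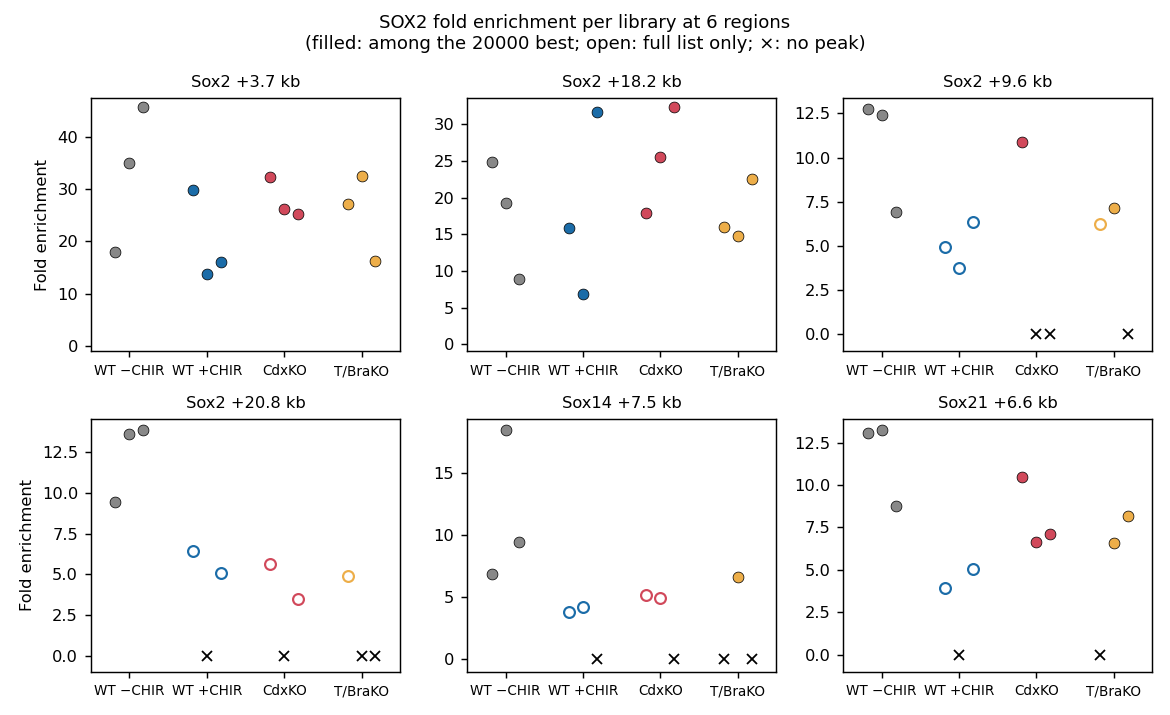
SOX2 fold enrichment (vertical axis, separate scale in each panel) at 6 regions, with a point for each of the 12 libraries by group; filled points stand among the 20000 best, open points only in the full list, and crosses, drawn at 0, mark libraries with no peak. At the +3.7 and +18.2 kb regions of Sox2 the groups overlap. The other 4 regions were chosen for being called in WT only without CHIR, and there the 3 libraries of WT without CHIR lie above those of WT with CHIR.

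Of the regions present in every SOX2 list, 6 belonged to members and 0 of these differed between WT with and without CHIR, where 10.4% of 4531 regions did, 193 higher and 280 lower with CHIR. Without centring the split was 62 higher and 686 lower. The 6 differences ran from -0.75 to 0.36 on the log2 scale with limma adjusted p from 0.259 to 0.945. The lowest value belonged to Sox14 +3.4 kb (chr9:99872517-99873654, intergenic). Fold enrichment there was 38.0, 25.2 and 31.8 without CHIR against 12, 10.9 and 18.9 with CHIR, for a log2 difference of -0.75 (SE 0.41, limma adjusted p = 0.259). All values without CHIR were above those with CHIR. CdxKO (14.8, 16.0 and 13.0) and T/BraKO (11, 10.5 and 24.4) overlapped WT with CHIR.

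At a pair of member regions SOX2 reached the 20000 best in CdxKO but not in WT with CHIR, where some full lists held a weaker peak. The -log10 q of the weakest peak kept was 7.71, 6.68 and 7.36 in CdxKO and 14.1, 7.28 and 8.20 in WT with CHIR. The part of this cut in the calls was not tested. In 2 of 35 member regions all 3 CdxKO libraries and no WT library with CHIR had a peak among the 20000 best, against 0.955% of 81394 regions, and in 0 of 35 the reverse, against 0.059%. One of them was Sox21 +6.6 kb, with 10.4, 6.64 and 7.13 in CdxKO and 6.59 and 8.15 in T/BraKO replicates 2 and 3. Full lists of WT replicates 1 and 3 with CHIR held it at 3.93 and 5.07. Sox21 +6.6 kb was thus called in WT cells without CHIR and in CdxKO cells, and WT with CHIR was the only SOX2 group in which it was missing from the 20000 best of every library. The other was Sox14 +4.3 kb (chr9:99871721-99872054, intergenic), with 8.27, 9.44 and 15.1 in CdxKO and 3.77 in a single WT library with CHIR, replicate 2, in its full list. It was weaker but present in all WT full lists without CHIR (6.12, 5.04 and 6.08, the last among the 20000 best) and in T/BraKO replicates 1 and 3 (3.33 and 5.12, the latter among the 20000 best). With missing peaks at the lowest fold, the log2 difference of WT from CdxKO was -2.05 (SE 0.73) at Sox14 +4.3 kb and -1.10 (SE 0.64) at Sox21 +6.6 kb, limma adjusted p = 0.241 and 0.552. Between WT and T/BraKO, 0 of 42 SOX2 regions were separated in this way, against 0.0447% only in WT and 0.719% only in T/BraKO. In the fit of regions present in every list, 0 of 6 were called against CdxKO (0.309% of 4531 regions) and 0 of 6 against T/BraKO (0%, with 304 regions at an unadjusted p under 0.05).

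β-catenin occupied 6 regions around Sox2. The +18.1 kb region (chr3:34667940-34668863, an intron of Sox2ot) coincided with the SOX2 region described above, the summits lying 52 bases apart. Its β-catenin fold enrichment was 10.6, 9.35 and 19.1 in WT, 13.5, 11.9 and 19.5 in CdxKO and 8.86, 17.1 and 13.6 in T/BraKO, with every group overlapping the others. WT differed from CdxKO by -0.30 on the log2 scale (SE 0.43, limma adjusted p = 0.873).

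The +15.0 kb region (chr3:34665070-34665770, an exon of Sox2ot) was the best-ranked β-catenin region of the locus in WT cells. Its fold enrichment was 11.6, 21.3 and 30.4 in WT, 7.16, 5.47 and 7.0 in CdxKO and 12.1, 5.6 and 10.3 in T/BraKO. All WT libraries exceeded all CdxKO libraries, as at 1 of 4 member regions and 7.36% of 5991 regions with a peak in all 6 lists (the reverse was seen at 0 of 4 and 5.51%), while WT replicate 1 fell just under T/BraKO replicate 1. In the ranking within each list the region stood at 2446, 1297 and 1159 in WT, at 7639, 14645 and 9133 in CdxKO and at 5217, 13062 and 4740 in T/BraKO. The log2 difference of WT from CdxKO was 1.53 (SE 0.42) and from T/BraKO 1.33 (SE 0.42). Neither passed, with limma adjusted p = 0.0888 and 0.0613. The second was called without WT replicate 1, at a difference of 1.66 and limma adjusted p = 0.0220, and its adjusted p reached 0.306 when another library was left out. Over all tested β-catenin regions, 0.704% of 4971 were called against CdxKO, 33 higher and 2 lower in WT. Against T/BraKO 5.25% were called, 239 higher and 22 lower in WT, or 191 and 45 without centring.

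SOX2 was found at the same +15.0 kb element, its summit 51 bases away. Its fold enrichment there was 11.5, 5.31 and 12.6 in WT with CHIR and 4.89, 6.34 and 7.28 in WT without CHIR, with 2 and 1 of 3 among the 20000 best. CdxKO had a SOX2 peak at it in 1 library (5.84) and T/BraKO in 2 (5.41 and 4.16), all outside the 20000 best. With missing peaks at the lowest fold, the log2 difference of WT from CdxKO was 2.24 (SE 0.69, limma adjusted p = 0.144). The region holds a TCF/LEF word CTTTGAA 2 to 8 bases from the β-catenin summit.

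A further β-catenin region, Sox2 +3.0 kb (chr3:34652825-34653540, an intron of Sox2ot), had no peak in any full CdxKO list. It gave 12.9, 4.34 and 19.3 in WT and 10.8, 9.68 and 6.21 in T/BraKO, so that only CdxKO stood apart. It missed the count of separated regions because WT replicate 2 had it outside its 20000 best. In full lists, 1 of 45 member regions was called in all WT and no CdxKO libraries, against 0.95% of 82304 regions. The reverse held at 1 of 45, against 0.345%. With no CdxKO value, the difference of Sox2 +3.0 kb from WT could not be tested on measured values. A fit with 3 imputed values is given at the end. At Sox2 -10.3 kb (chr3:34639633-34640215) T/BraKO gave 9.05, 10.7 and 8.64, WT had 5.51 and 5.92 in replicates 1 and 3, and CdxKO 6.26 in replicate 3. With missing peaks at the lowest fold, the log2 difference of WT from T/BraKO there was -1.23 (SE 0.80, limma adjusted p = 0.467), so it was not called. Sox2 -4.0 kb (chr3:34646042-34646676) was shared with SOX2, 11 bases between summits, and gave 5.51, 6.08 and 12 in WT. Among the 20000 best, 0 of 37 β-catenin regions were separated between WT and CdxKO, against 0.506% only in WT and 0.322% only in CdxKO. It was 0 of 39 for T/BraKO, against 0.608% and 0.815%.

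**Figure D4:**
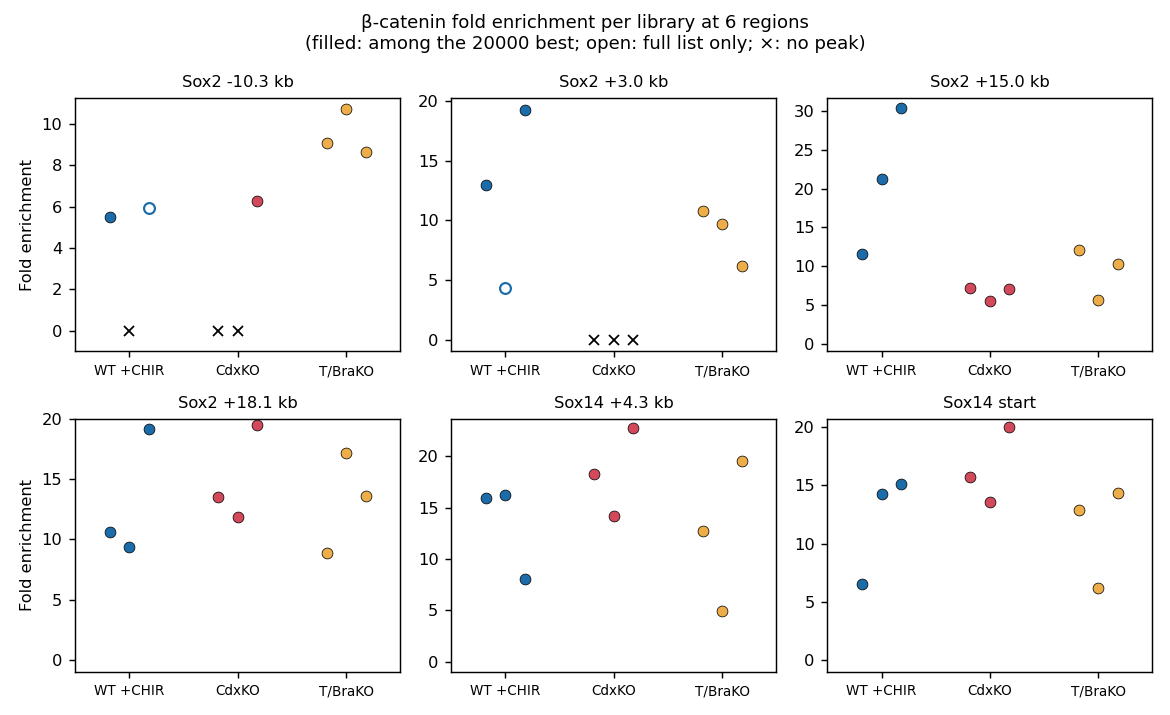
β-catenin fold enrichment (vertical axis, separate scale in each panel) at 4 regions of Sox2 and 2 of Sox14, with a point for each of the 9 libraries by group; filled points stand among the 20000 best, open points only in the full list, and crosses, drawn at 0, mark libraries with no peak. At Sox2 +15.0 kb WT lies at 11.6 to 30.4 and CdxKO at 5.47 to 7.16, at Sox2 +3.0 kb CdxKO has no peak, and the groups overlap at Sox2 +18.1 kb and at both Sox14 regions.

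Sox14 carried a pair of β-catenin regions that were called in all 9 libraries. One spans the start of the gene (chr9:99875456-99876466). Fold enrichment there was 6.51, 14.3 and 15.1 in WT, 15.7, 13.5 and 20.1 in CdxKO and 12.9, 6.17 and 14.4 in T/BraKO. SOX2 had no region at the start. The 150 bases before the start on the strand of the gene (minus, chr9:99876171-99876320) hold a TCF/LEF word, in capitals.
Sox14 before the start: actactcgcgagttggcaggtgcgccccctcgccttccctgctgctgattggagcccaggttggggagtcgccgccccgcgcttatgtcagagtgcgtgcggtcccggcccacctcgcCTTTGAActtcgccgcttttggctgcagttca
The other lay at +4.3 kb (chr9:99871064-99872846, intergenic), with 16.0, 16.2 and 8.08 in WT, 18.3, 14.2 and 22.8 in CdxKO and 12.7, 4.98 and 19.5 in T/BraKO. Its summit was 29 bases from that of the SOX2 region called in all 3 CdxKO libraries. Groups overlapped at both regions. WT differed from CdxKO by -0.59 (SE 0.44) at the start and -0.56 (SE 0.47) at +4.3 kb on the log2 scale, limma adjusted p = 0.701 and 0.757.

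At Sox1, a B1 gene that marks early neural progenitors, the strongest SOX2 signal lay far downstream. Sox1 +34.9 kb (chr8:12429676-12430871, an exon of Sox1ot, a noncoding transcript over the gene) gave 29.3, 44.1 and 13.0 in WT without CHIR. In WT with CHIR it gave 7.05, 4.94 and 10.0, with replicate 3 alone among the 20000 best. CdxKO had it in 2 libraries (8.63 and 9.65) and T/BraKO in 1 (15.1). The WT values with CHIR were all below those without it. With missing peaks at the lowest fold the WT groups differed by -1.40 (SE 0.70, limma adjusted p = 0.185). Of the other 3 SOX2 regions, those at +4.2 and +5.6 kb were present in all 12 full lists, with folds from 3.36 to 12.1 and from 3.73 to 13.1.

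β-catenin had 4 regions at Sox1, at -8.1, +0.5, +4.3 and +6.0 kb, and none was called in all libraries of any group. The best ranked in WT, Sox1 +4.3 kb (chr8:12399316-12399752), gave 15.7 and 13.8 in WT replicates 1 and 3 and no peak in replicate 2. CdxKO gave 6.89 and 4.36 there in replicates 2 and 3, and T/BraKO 19.8 and 8.08 in replicates 1 and 2. With missing peaks at the lowest fold, WT differed from CdxKO by 0.86 (SE 0.89, limma adjusted p = 0.719). The most regular, Sox1 +6.0 kb (chr8:12400412-12401595), gave 10.9, 6.08 and 4.79 in WT, 10.4 and 5.27 in CdxKO replicates 1 and 2, and 12.9, 10.7 and 4.69 in T/BraKO. The regions at -8.1 kb (6.47 and 9.58 in replicates 2 and 3) and +0.5 kb (6.89 and 5.76 in replicates 1 and 2) were among the 20000 best in T/BraKO only. WT full lists still held them, at 4.36 and 4.18 (replicates 1 and 2) and at 5.65 and 7.13 (replicates 2 and 3). With missing peaks at the lowest fold, the log2 difference of WT from T/BraKO was -0.76 (SE 0.76) at -8.1 kb and 0.11 (SE 0.79) at +0.5 kb. Neither passed, with limma adjusted p = 0.676 and 0.964.

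Sox21 and Sox3 had 1 region each. That of Sox21 was the SOX2 region already described, and β-catenin peaks there or elsewhere in the locus numbered 0 to 3 per library without any region called in 2 of 3 libraries. Sox3, with 0 to 2 peaks per library, lies on the X chromosome, of which these XY cells carry a single copy, and the part of copy number in its counts was not tested. The β-catenin region Sox3 -4.5 kb (chrX:60897902-60898108, an exon of the antisense gene Gm14662) gave 5.17, 6.17 and 6.26 in T/BraKO, with replicates 2 and 3 among the 20000 best. No WT or CdxKO library had a β-catenin peak there, and no SOX2 or LEF1 region described here overlapped it. SOX2 peaks among the 20000 best fell in the Sox3 locus in 2 of 12 libraries, WT without CHIR replicate 2 and CdxKO replicate 3.

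LEF1 gave a single region, Sox2 +18.1 kb (chr3:34668306-34668752), at the element shared by SOX2 and β-catenin, 66 bases from the SOX2 summit. T/BraKO replicates 1 and 3 had it among the 20000 best, with fold enrichment of 11.9 and 7.39, as did CdxKO replicate 2 at 13.7. The remaining LEF1 libraries had values from 2.68 to 5.58 in full lists, or no peak in WT replicate 3. Lists of LEF1 peaks were long, 175430 to 924506, while only 4183 regions of the genome were called in 2 of 3 libraries of a group, against 21668 for SOX2 and 17072 for β-catenin. Of 27 LEF1 member regions 0 were separated between WT and CdxKO (0.0346% of all regions only in WT, 0.0983% only in CdxKO), and 0 of 28 between WT and T/BraKO (0.0947% and 0.0259%). No LEF1 member region was present in every list, so none entered the limma fit, which called 0 of 945 regions (0%, 72 at an unadjusted p under 0.05) against CdxKO and 0.635% against T/BraKO.

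Summits of SOX2 and β-catenin lay close together at some of these elements. The share over all β-catenin regions was not computed, so no excess over the genome can be read from the counts. Each summit came from the library with the highest fold at its region, in any group, so a pair can join different conditions. At Sox2 -4.0 and +3.7 kb the SOX2 summit came from WT without CHIR, where β-catenin was not immunoprecipitated. Closeness here therefore does not show both proteins in the same cells. Among the 12 β-catenin regions in loci with a SOX2 region, 6 had their summit within 100 bases of a SOX2 summit, at most 52 bases away. These were 4 at Sox2 (-4.0, +3.7, +15.0 and +18.1 kb), 1 at Sox1 (+4.3 kb) and 1 at Sox14 (+4.3 kb). The 6 others lay 441 bases or more from the nearest, among them the start of Sox14 and Sox2 -10.3 kb.

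Motif words were counted within 100 bases of each summit. A SOX word occurred in 4 of 18 SOX2 regions, against 30.6% of all 21668. A TCF/LEF word was present in 5 of 13 β-catenin regions, against 39.4% of all 17072, and in the LEF1 region, against 56.1%. CDX words were found in 3 of 18 SOX2 regions (10.4% of all) and 1 of 13 β-catenin regions (13.1%), and the T-box word AGGTGTGA in none of either (0.858% and 1.78%). The octamer ATGCAAA stood in 1 of 18 SOX2 regions, Sox2 +5.9 kb (9.41%), and in 1 of 13 β-catenin regions, Sox3 -4.5 kb (8.38%). In the Sox2 +3.7 kb element a SOX word lies 34 to 28 bases before the SOX2 summit and a TCF/LEF word 46 to 52 bases after it. At Sox2 +20.8 kb the SOX word begins 1 base from the summit, and at Sox14 +3.4 kb 42 bases from it. These matches describe letters only.

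Over the 30 libraries, the peak number at Sox2 ran most alike to that at Tfap2a (Pearson r = 0.826), Tmc7 (0.793) and Lmx1b (0.786), of 17150 genes compared. For Sox1 the nearest were Mid1ip1 (0.766), Crygn (0.734) and 1700008O03Rik (0.727), for Sox14 Ripk4 (0.771) and Ttll6 (0.734), and for Sox21 Utf1 (0.663), Gm28048 (0.656) and Efna4 (0.646). Sox3 had too few peaks. The points share their antibody and their list, so these values describe the lists, with 3 antibodies behind much of the spread.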

How the data were processed

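Chromatin was immunoprecipitated for SOX2, β-catenin or LEF1 and sequenced. The authors processed reads with nf-core/chipseq and called narrow peaks with MACS2 on mm10, per library, at the default threshold. The deposited lists give fold enrichment as a ratio over the local background, -log10 of the p-value and -log10 of the q-value, and a score that restates the last and was not used. Which input served as control is not given in the sources used here, and the lists hold no counts, so depth is unknown and no count model was run.

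Peaks were ranked by -log10 q and the 20000 best kept. Loci were GENCODE M21 gene bodies with 30 kb on each side. Regions of a factor are merged peaks. Regions that 2 or 3 libraries of any group shared were described, in full where best ranked in WT, separated 3 of 3 against 0 of 3, or past the limma test. Other regions given in full were chosen after their values were seen. Peak numbers were compared across groups by exact permutation, two-sided, adjusted by Benjamini-Hochberg over all genes tested. Log2 fold enrichment, centred on the library median, was tested with limma (version 3.58.1 in R 4.3.3) over regions present in every list of the factor, at adjusted p under 0.05. WT with CHIR is shared by all comparisons of a factor. Alternatives were the 5000 best peaks, full lists, ranking by fold, extensions of 10 or 120 kb, no centring, missing peaks at the lowest fold of the list, the replicate number as a block, and leaving out each library. Both tests were checked on simulated data. The genes most like a member had the highest Pearson r of peak number over the 30 libraries, 3 for each member, of which 1 is not reported here. Members, lists and regions were chosen with earlier results of these data known. Sequences come from RefSeq GRCm38.p6.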

Additional observations from a re-analysis of the deposited data

How the results depend on the processing

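The 13 tests of peak number across groups stayed above the threshold in all 224 values, with adjusted p from 0.231 (full lists) to 1. With the 5000 best peaks, 5 of them could not be run. Since no gene could pass these tests alone, values that stay above the threshold are weak evidence of no difference. The separation of WT with CHIR below WT without CHIR in SOX2 peak number, 2 members, came to 1 with the 5000 best (Sox1). The share of genes was 4.93% there. An extension of 10 kb also gave 1 (Sox2), against 3.78% of genes. Full lists gave 0, against 0.00462%. In full lists every member had a higher mean with CHIR than without, such as 36.7 against 26.3 at Sox2. There 42.9% of genes lay wholly higher with CHIR, so the direction depended on the length of the lists. With the summit required inside the locus, an alternative chosen after seeing the data, the separation came to 1 (Sox2), against 4.53% of genes. The summit of Sox1 +34.9 kb lay outside. The β-catenin separation of WT below T/BraKO, 1 member, came to 0 with the 5000 best (1.6% of genes), full lists (0%) or 10 kb (1.73%). Ranked by fold it came to 2, against 2.09% of genes. Separations absent from the main counts appeared in 3 comparisons. For SOX2 WT and T/BraKO, Sox14 was higher in WT with full lists, as were 20.1% of genes. With 120 kb Sox2 was lower in WT, as were 3.38% of genes. For LEF1 WT and CdxKO, 2 members (Sox2 and Sox14) were higher in WT with 120 kb, against 2.58% of genes. For LEF1 WT and T/BraKO, Sox1 was higher in WT with the summit inside, as were 1.95% of genes.

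Of regions called 3 of 3 against 0 of 3, the 4 for SOX2 with and without CHIR became 1 with the 5000 best, against 6.27% of regions. They were 4 to 6 when a library was left out, against 5.34% to 7.45% of regions. In full lists they became 3, of which 2 were called only without CHIR (2.43% of all regions) and 1 only with CHIR (0.841%). None of the 4 named regions was among these, each having a peak in at least 2 full WT lists with CHIR. The 2 for SOX2 WT and CdxKO became 0 with the 5000 best, where 1.51% of regions were called only in CdxKO and 0.284% only in WT. In full lists they became 3, of which 2 were called only in WT (0.638% of all regions) and 1 only in CdxKO (0.643%). They were 2 to 4 when a library was left out, the 4 arising without WT replicate 2 (0.543% of regions only in WT, 1.47% only in CdxKO). Counts of 0 became 1 for SOX2 WT and T/BraKO, only in T/BraKO with 120 kb (0.719% of regions) and only in WT in full lists (0.765%). For β-catenin WT and CdxKO they became 1 only in WT with 120 kb (0.506%) or the 5000 best (2.08%). Full lists gave 2 there, 1 only in WT (0.95%) and 1 only in CdxKO (0.345%). For β-catenin WT and T/BraKO they became 1, only in T/BraKO, with 120 kb (0.815%) and full lists (0.665%). Leaving out a library gave 0 to 2 for SOX2 WT and T/BraKO, 0 to 1 for β-catenin WT and CdxKO, 0 to 2 for β-catenin WT and T/BraKO, and 0 to 1 for LEF1 WT and T/BraKO. In either direction the share over all regions was at most 2.46% for these.

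In limma, the count of member regions called went from 0 to 1 for β-catenin WT and CdxKO with missing peaks at the lowest fold (Sox2 +3.0 kb, whose 3 CdxKO values are all imputed, so that this is no test of measured values), and for WT and T/BraKO from 0 to a range of 0 to 1 when a library was left out. Log2 differences at Sox2 +15.0 kb stayed between 1.06 and 1.86 over libraries left out. SOX2 at Sox2 +3.7 kb turned to 0.13 without WT without CHIR replicate 3, with a range of -0.67 to 0.13. Without centring, the median of all SOX2 regions shifted by -0.42 between WT with and without CHIR.

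Replicate numbers were not taken to pair the libraries, since same-numbered deviations correlated from -0.147 to 0.275 over 36 pairs, and from -0.0947 to 0.275 for β-catenin, where not every pair was above 0.1. With the replicate number as a block, β-catenin at Sox2 +15.0 kb was called between WT and T/BraKO (log2 1.33, adjusted p = 0.0447), making 1 member region called. The block changed no other call, with adjusted p of 0.932 or higher for peak numbers. The causes of these changes were not tested.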
